A study of Mus musculus with 79 samples.

Results

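The 9 genes described here encode fibroblast growth factor (FGF) ligands: Fgf3, Fgf4, Fgf5, Fgf8, Fgf9, Fgf10, Fgf15, Fgf17 and Fgf18. They were chosen by symbol, as the ligand genes listed for the mouse embryo's tail end, and were 9 of the 23983 gene symbols in each of 3 expression tables. All 9 were found in every table. The values were read in 9 bulk RNA libraries and in 53 single cells of mouse embryos, sorted around the choice that neuro-mesodermal progenitors make between spinal cord and paraxial mesoderm.

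Embryos came from embryonic stem cells placed in tetraploid host embryos, which form extraembryonic tissue while the stem cells form the body, and caudal ends of several embryos were pooled before trypsin treatment and sorting. The first table held 3 wild-type fractions of Theiler stage 12 (TS12), labelled strain C57BL/6N: cells positive for both T and Sox2 (T+ Sox2+), T+ cells and Sox2+ cells. T (Brachyury) is a mesodermal transcription factor, and Sox2 is a factor of neural and pluripotent cells. The second, called the knockout table here, held T+ cells of T2J/2J embryos, which lack T function (T KO, labelled C57BL/6J), and T+ cells of wild-type embryos (WT, labelled C57BL/6N), each at TS12 and TS13. It also held a pair of Tbx6+ libraries of TS14, both labelled C57BL/6J, titled Tbx6 KO and WT. The source names of that pair give the opposite genotypes, so the libraries are called by their titles. Tbx6 is a factor of presomitic mesoderm. The third table held single T+ Sox2+ cells of wild-type embryos at TS13, labelled C57BL/6N and captured on a Fluidigm C1 chip. Genotype and labelled strain cannot be told apart in the T KO comparisons.

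FGF ligands are secreted, bind receptor tyrosine kinases together with heparan sulfate and switch on the Ras-MAPK cascade. Cells answer with feedback genes such as Dusp6, the Sprouty genes and the factors Etv4 and Etv5. In the mouse tail bud, FGF signalling keeps presomitic mesoderm undifferentiated and supports the progenitors that lengthen the body. By sequence, Fgf8, Fgf17 and Fgf18 form 1 subfamily, Fgf4 and Fgf5 belong to another, Fgf3 and Fgf10 to a further one, Fgf9 to its own, and Fgf15 is the mouse counterpart of the endocrine factor FGF19 of humans.

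Each bulk group had 1 library, so differences between libraries describe those libraries and carry no p-value. Values are FPKM, sequenced fragments scaled to transcript length and to library size, so that levels of different genes can be set side by side. FPKM values moved in whole-fragment steps. The steps gave totals of 20.8 M to 43.5 M fragments per library and of 0.420 M to 2.43 M fragments per cell. They also gave fragment counts for every ligand except Fgf8, whose values fitted no length in whole bases. Fgf5 was above 0 in few libraries and lay up to 0.013 fragments from whole, so its counts are the least certain. Intervals given below are exact 95% intervals of the ratio of those counts and cover counting error only, since amplified fragments are not independent molecules. The T knockout libraries carried little T mRNA, with 4.61 FPKM in T KO cells against 69.8 FPKM in WT cells at TS12, and 3.32 FPKM in T KO cells against 76.4 FPKM in WT cells at TS13. How T+ cells were marked for sorting is not given in the sources used here. In the TS14 pair, Tbx6 itself had 10.2 FPKM under the title Tbx6 KO and 31.5 FPKM under the title WT. T had 471 FPKM under the title Tbx6 KO and 166 FPKM under the title WT. Sox2 had 42.3 FPKM under the title Tbx6 KO and 4.70 FPKM under the title WT. In bulk RNA, fewer cells of a kind and less RNA per cell cannot be told apart. One library stood apart: WT TS12 of the knockout table listed 1043 of 1477 olfactory, vomeronasal and taste receptor genes above 0, with a median of 0.0952 FPKM, against 23 to 36 such genes in the other libraries. Ligand values near that level in it are given but not read.

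In the sorted wild-type fractions, the FGF ligands split into 3 patterns. Fgf3, Fgf4, Fgf8 and Fgf15 were highest in the T+ Sox2+ library, Fgf17 and Fgf18 in the Sox2+ library, and Fgf9 and Fgf10 in the T+ library. Fgf5, a marker of the epiblast, was at 0 fragments in all 3. Summed over the 9 ligands, the level was 247 FPKM in T+ Sox2+ cells, 82.8 FPKM in T+ cells and 192 FPKM in Sox2+ cells.

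Fgf8, the ligand best known in the tail bud, stood at 78.8 FPKM in T+ Sox2+ cells, at 20.9 FPKM in T+ cells and at 45.1 FPKM in Sox2+ cells. Fgf17, its close relative, stood at 90.3 FPKM in T+ Sox2+ cells, 19.2 FPKM in T+ cells and 103 FPKM in Sox2+ cells. These were the most abundant ligands in all 3 fractions, and their order changed: Fgf17 led in T+ Sox2+ and in Sox2+ cells, with 36.6% and 53.8% of the ligand sum, and Fgf8 led in T+ cells with 25.2%. Fgf18, the last of that subfamily, was at 15.9 FPKM in T+ Sox2+ cells, 10.8 FPKM in T+ cells and 20.6 FPKM in Sox2+ cells. The T+ Sox2+ to Sox2+ ratio was 0.876 for Fgf17 (0.839 to 0.915) and 0.774 for Fgf18 (0.696 to 0.861), neither past 2-fold. The T+ Sox2+ to T+ ratio was 4.72 for Fgf17 (4.39 to 5.07) and 1.47 for Fgf18 (1.30 to 1.67), intervals that do not overlap.

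Fgf3, a ligand needed for normal tail growth in mice, was at 20.6 FPKM in T+ Sox2+ cells, at 8.15 FPKM in T+ cells and at 4.89 FPKM in Sox2+ cells. Its ratio was 4.21 for T+ Sox2+ over Sox2+ cells (3.54 to 5.03) and 2.53 for T+ Sox2+ over T+ cells (2.19 to 2.93). Fgf4, which acts together with Fgf8 in the unsegmented mesoderm of mice, had 5.70 FPKM in T+ Sox2+ cells, 1.30 FPKM in T+ cells and 1.65 FPKM in Sox2+ cells, with ratios of 3.45 over Sox2+ cells (2.84 to 4.21) and 4.37 over T+ cells (3.54 to 5.43). Its levels in T+ and in Sox2+ cells did not differ beyond counting error, with a ratio of 0.789 (0.612 to 1.02). Fgf15 was at 30.4 FPKM in T+ Sox2+ cells, 10.6 FPKM in T+ cells and 14.1 FPKM in Sox2+ cells. The smallest ratio of the double-positive library to another one among these 3 genes was 2.16, for Fgf15 against Sox2+ cells (1.97 to 2.37).

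Fgf9 and Fgf10 ran the other way. Fgf9, a ligand of mesenchyme growth in later organs, was at 4.72 FPKM in T+ Sox2+ cells, at 9.34 FPKM in T+ cells and at 1.85 FPKM in Sox2+ cells. Fgf10, known for limb bud and lung outgrowth, was at 0.404 FPKM in T+ Sox2+ cells, 2.52 FPKM in T+ cells and 0.406 FPKM in Sox2+ cells. The T+ library was 5.04 times the Sox2+ library for Fgf9 (4.36 to 5.86) and 6.22 times for Fgf10 (4.64 to 8.48). Markers of lateral plate and intermediate mesoderm moved the same way: 1 of 7 reached 5 FPKM in T+ Sox2+ cells, 6 of 7 in T+ cells and 0 of 7 in Sox2+ cells, where Gata4 was at 0. Their summed level was 17.4 FPKM in T+ Sox2+ cells, 131 FPKM in T+ cells and 5.39 FPKM in Sox2+ cells. Summed blood markers were at 111 FPKM in T+ Sox2+ cells, 12014 FPKM in T+ cells and 230 FPKM in Sox2+ cells. The part of such cells in the Fgf9 and Fgf10 values was not tested.

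Other markers also differed between the fractions. In T+ Sox2+ against T+ cells, 4 of 4 axial progenitor markers that met a minimum of 5 FPKM were at least 2-fold higher (median log2 difference 2.63). Their sums were 254 FPKM in T+ Sox2+ cells, 35.3 FPKM in T+ cells and 260 FPKM in Sox2+ cells. In T+ Sox2+ against Sox2+ cells, 1 of 4 axial progenitor markers was higher and 2 were lower (median log2 difference -0.35). In that comparison 4 of 5 presomitic markers were higher and 4 of 5 neural tube markers lower. Neural tube markers summed to 12.3 FPKM in T+ Sox2+ cells, 5.19 FPKM in T+ cells and 67.2 FPKM in Sox2+ cells. Their part in the values of Fgf3, Fgf4, Fgf8, Fgf15, Fgf17 and Fgf18 was not tested.

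**Figure D1:**
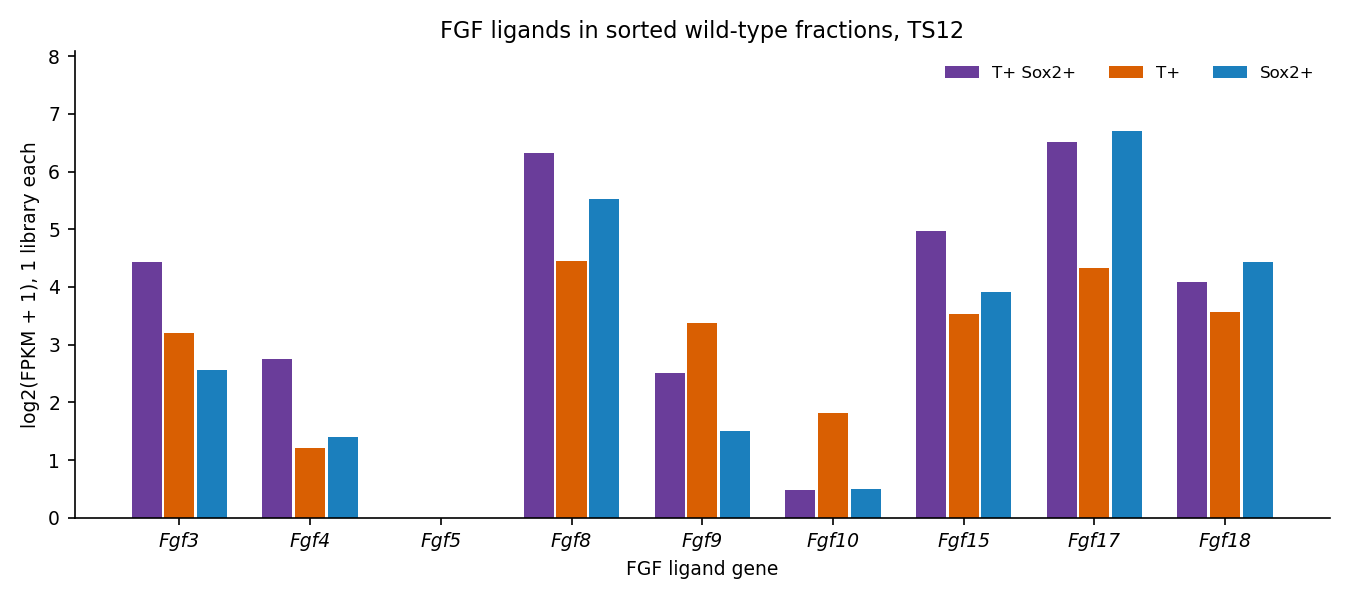
Level of each FGF ligand, as log2(FPKM + 1) on the vertical axis, in 1 library each of T+ Sox2+ (purple), T+ (orange) and Sox2+ (blue) wild-type cells of TS12. Fgf8 and Fgf17 are the tallest bars, Fgf3, Fgf4, Fgf8 and Fgf15 peak in T+ Sox2+ cells, Fgf9 and Fgf10 peak in T+ cells, and Fgf5 is at 0.

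Counts of higher and lower genes rest on a difference of log2(FPKM + 1) of 1 or more, called 2-fold here, and on a minimum of 5 FPKM in either library of a pair. Against Sox2+ cells, 6 of the 9 ligands met the minimum in T+ Sox2+ cells and 3 were higher (Fgf3, Fgf4 and Fgf15), with 0 lower. Of all 8272 genes compared, 1.51% were higher and 1.44% lower. Against T+ cells, 7 ligands met the minimum and 5 were higher (Fgf3, Fgf4, Fgf8, Fgf15 and Fgf17), with 0 lower, beside 1.30% higher and 1.88% lower of all genes. Between the single-positive fractions, T+ over Sox2+, 6 ligands met the minimum, Fgf9 was higher and Fgf8 and Fgf17 were lower. The background there was 3.65% higher and 3.24% lower. Against Sox2+ cells, Fgf3 and Fgf4 met the minimum only through the T+ Sox2+ library, as did Fgf4 against T+ cells. Fgf9, in T+ over Sox2+, met it only through the T+ library. For these ligands the filter favours the direction called, so the counts are not read as support. A ligand low in both fractions could not be counted, so Fgf5 and Fgf10 enter none of these counts, and the 3 comparisons share their libraries.

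In T+ cells, most FGF ligands had lower values in T KO than in WT embryos. At TS12, 8 of 9 ligands were below WT, among them Fgf5, whose WT value is not read there, and at TS13 all 9 were. No minimum was set for these signs. The share of all genes below WT was not counted, so the counts of signs are not read as support. Without a minimum, the median log2 difference of all genes was -0.068 at TS12 and -0.018 at TS13. Fgf17 was the one above WT at TS12, and of the ligands with an interval its ratio lay closest to 1 at TS13. The summed level of the 9 ligands was 54.7 FPKM in T KO cells against 83.3 FPKM in WT cells at TS12, and 34.4 FPKM in T KO cells against 94.6 FPKM in WT cells at TS13.

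Fgf3, Fgf4 and Fgf15 were lower in T KO cells at both stages, and they lie next to each other on mouse chromosome 7 with no other protein-coding gene between them. In the RefSeq annotation of GRCm38.p6, Fgf3 spans chr7:144838612-144843348, Fgf4 spans chr7:144861386-144865245 and Fgf15 spans chr7:144896532-144900953, which leaves 18037 bases between the first pair and 31286 bases between the second. A non-coding gene, Gm26793, overlaps 3157 bases of Fgf15, and another, Gm38605, overlaps 3918 bases of Fgf17. How fragments in such stretches were assigned is not known from the sources used here, so reads of the overlapping genes cannot be told apart. Among the 6 ligands in the promoter table, Fgf3 and Fgf4 are the neighbours on chromosome 7, and Fgf5 held the single motif match. Fgf9, Fgf10 and Fgf18 were also lower in both T KO libraries, and their windows are not printed. The promoter windows of Fgf3, Fgf4 and Fgf5 are shown. Each runs from 250 bases before to 50 bases after the RefSeq start, on the plus strand of GRCm38.p6, 5′ to 3′, at chr7:144838362-144838661 for Fgf3, chr7:144861136-144861435 for Fgf4 and chr5:98253934-98254233 for Fgf5. Capitals mark a match to the T-box core GGTGTGA on either strand.
Fgf3: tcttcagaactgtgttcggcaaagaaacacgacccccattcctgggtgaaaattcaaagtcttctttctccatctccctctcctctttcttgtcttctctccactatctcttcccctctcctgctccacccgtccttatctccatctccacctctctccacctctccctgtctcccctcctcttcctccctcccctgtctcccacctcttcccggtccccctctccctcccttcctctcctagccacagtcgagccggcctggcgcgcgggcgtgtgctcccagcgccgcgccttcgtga
Fgf4: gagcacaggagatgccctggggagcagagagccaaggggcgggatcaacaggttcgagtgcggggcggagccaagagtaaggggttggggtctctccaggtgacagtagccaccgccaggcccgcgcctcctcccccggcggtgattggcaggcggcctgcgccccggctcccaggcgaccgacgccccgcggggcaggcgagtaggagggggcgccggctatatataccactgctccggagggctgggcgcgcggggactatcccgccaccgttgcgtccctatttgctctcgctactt
Fgf5: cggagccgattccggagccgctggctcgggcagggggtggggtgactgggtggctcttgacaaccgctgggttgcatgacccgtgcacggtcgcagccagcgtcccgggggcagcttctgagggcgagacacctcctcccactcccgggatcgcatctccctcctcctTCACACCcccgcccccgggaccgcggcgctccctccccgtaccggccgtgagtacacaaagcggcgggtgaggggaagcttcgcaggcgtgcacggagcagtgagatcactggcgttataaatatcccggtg
The windows were searched on both strands for GGTGTGA and for CTTTGAT, a core of the TCF/LEF factors of Wnt signalling. The windows of Fgf3, Fgf4, Fgf9, Fgf10 and Fgf18 held neither, and that of Fgf5 held the T-box core once and the other core not at all. Among 32544 promoter windows of that length, 3.95% held GGTGTGA and 3.73% held CTTTGAT. With 1 match in all 6 ligand windows, no matches overlapped. The GC content was 59.3% for Fgf3, 69.7% for Fgf4 and 68.3% for Fgf5, against a median of 53.0% for all windows.

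Fgf3 was at 2.01 FPKM in T KO cells and at 11.3 FPKM in WT cells at TS12, and at 0.745 FPKM in T KO cells and 9.01 FPKM in WT cells at TS13. The T KO to WT ratio was 0.178 at TS12 (0.129 to 0.241) and 0.0827 at TS13 (0.0543 to 0.121). Both T KO libraries were below both WT libraries. Fgf4 was at 0.619 FPKM in T KO cells against 4.83 FPKM in WT cells at TS12, a ratio of 0.128 (0.0895 to 0.179). At TS13 it had 0 fragments in T KO cells against 518 fragments, or 4.27 FPKM, in WT cells. The T KO to WT ratio had an interval of 0 to 0.0091. Set against a floor of 3 fragments per library, the WT level was 136 times as high. No gene at 20 FPKM or more in all other libraries of the knockout table was at 0 in the T KO TS13 library. Genes as low as Fgf4 are not covered by that check. Fgf15 was at 3.57 FPKM in T KO cells against 8.92 FPKM in WT cells at TS12, and at 0.597 FPKM in T KO cells against 6.81 FPKM in WT cells at TS13, with ratios of 0.400 (0.325 to 0.489) and 0.0878 (0.0601 to 0.124). The flanking genes differed among themselves. Ano1, a chloride channel gene on the Fgf3 side, was at 0.70 FPKM in T KO cells and 1.34 FPKM in WT cells at TS12, and at 0.456 FPKM in T KO cells and 1.37 FPKM in WT cells at TS13. The non-coding gene Bc1, beyond Fgf15, was at 0.982 FPKM in T KO cells and 6.20 FPKM in WT cells at TS12, and at 0 FPKM in T KO cells and 2.04 FPKM in WT cells at TS13. The cell-cycle gene Ccnd1, farther out, was at 64.8 FPKM in T KO cells and at 75.4 FPKM in WT cells at TS12, and at 73.9 FPKM in T KO cells and 71.2 FPKM in WT cells at TS13. These Ccnd1 values lie inside its range over all 9 libraries, 54.3 to 110 FPKM.

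The 3 members of the Fgf8 subfamily differed in their values. Fgf18 was at 0.407 FPKM in T KO cells against 3.97 FPKM in WT cells at TS12, a ratio of 0.102 (0.0532 to 0.181), and at 1.03 FPKM in T KO cells against 5.73 FPKM in WT cells at TS13, a ratio of 0.180 (0.131 to 0.243). Fgf8 was at 17.2 FPKM in T KO cells against 25.1 FPKM in WT cells at TS12, and at 4.49 FPKM in T KO cells against 30.1 FPKM in WT cells at TS13, so that its log2 difference was -0.52 at TS12 and -2.50 at TS13. Under upper-quartile scaling the TS12 difference was -1.02, past 2-fold. Fgf17 was at 25.3 FPKM in T KO cells against 20.3 FPKM in WT cells at TS12, a ratio of 1.25 (1.13 to 1.38), and at 23.8 FPKM in T KO cells against 30.2 FPKM in WT cells at TS13, a ratio of 0.788 (0.734 to 0.846). Its log2 difference was 0.31 at TS12 and -0.33 at TS13, but it was -0.19 at TS12 under upper-quartile scaling, and with the WT library of the other stage it was -0.24 at TS12 and 0.22 at TS13. With Fgf8 and the others low, Fgf17 made up 69.2% of the ligand sum in T KO cells at TS13, against 31.9% in WT cells.

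Fgf9 and Fgf10 had ratios nearer to 1 than Fgf3, Fgf4, Fgf15 and Fgf18 at TS12. Fgf9 was at 2.87 FPKM in T KO cells against 3.76 FPKM in WT cells at TS12, and at 2.70 FPKM in T KO cells against 4.41 FPKM in WT cells at TS13, with ratios of 0.763 (0.645 to 0.901) and 0.612 (0.537 to 0.696). Fgf10 was at 2.70 FPKM in T KO cells against 4.84 FPKM in WT cells at TS12, and at 1.03 FPKM in T KO cells against 3.83 FPKM in WT cells at TS13, with ratios of 0.558 (0.478 to 0.651) and 0.269 (0.223 to 0.321). Neither reached 5 FPKM in a T+ library of that table. Fgf5 had 0 fragments in both T KO libraries, against 14 fragments in WT cells at TS12 and 31 at TS13. Its WT level of 0.266 FPKM at TS12 is below the 95th percentile of the sensory receptor genes in that library (0.440 FPKM). In the WT TS13 library, where Fgf5 had 0.322 FPKM, that percentile was 0.

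**Figure D2:**
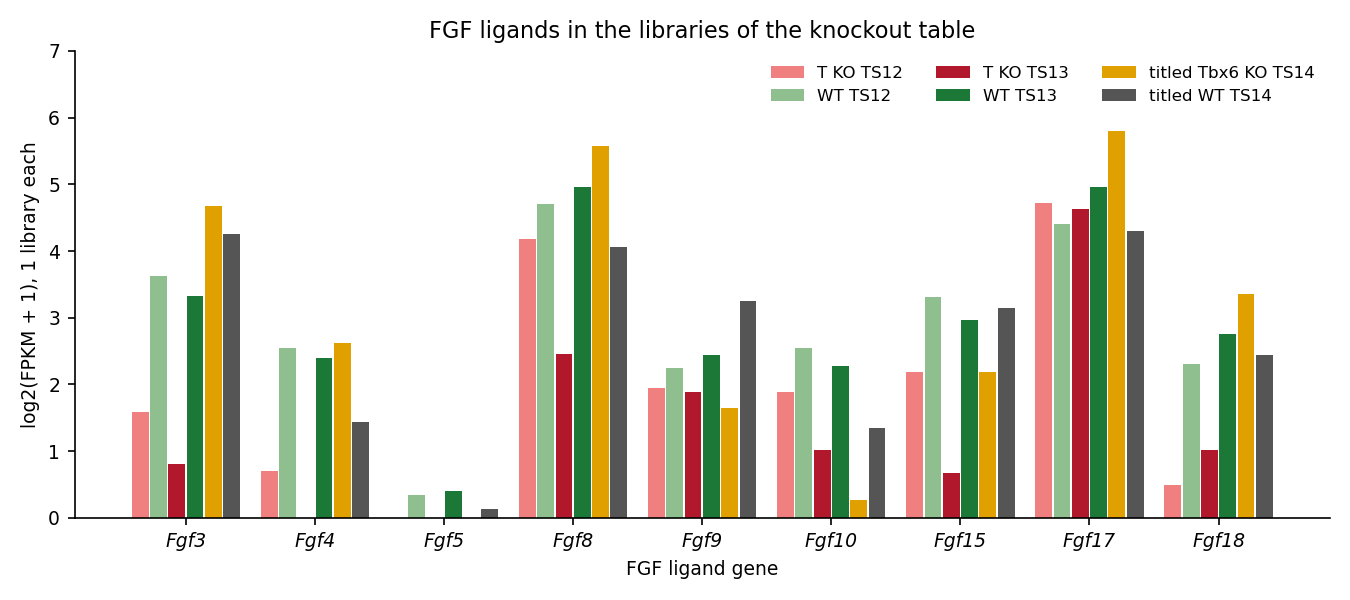
Level of each FGF ligand, as log2(FPKM + 1) on the vertical axis, in the 6 libraries of the knockout table, 1 library per bar: T KO and WT at TS12 (light red, light green), T KO and WT at TS13 (dark red, dark green) and the TS14 libraries titled Tbx6 KO (yellow) and WT (grey). Fgf3, Fgf4, Fgf15 and Fgf18 are lower in both T KO libraries, Fgf8 most at TS13, and Fgf17 is at 23.8 and 25.3 FPKM in T KO cells against 20.3 and 30.2 FPKM in WT cells.

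At TS12, 4 ligands met the minimum and 2 of them, Fgf3 and Fgf15, were at least 2-fold lower, with 0 higher. The background over 7865 genes was 1.00% lower and 0.992% higher. At TS13, 5 met it and 4 were lower (Fgf3, Fgf8, Fgf15 and Fgf18), beside 1.48% lower and 1.11% higher of 7953 genes. Every ligand called lower met the minimum only through the WT library of its stage, which favours falls. These counts are therefore not read as support. Fgf4, which stayed below 5 FPKM in all 4 libraries, is in neither count.

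The genotype effect was tested over both stages with limma on log2(FPKM + 1), with stage as a term and Benjamini-Hochberg adjustment over 8187 genes. This leaves 1 residual degree of freedom per gene, and the variances are moderated across genes, so a small p holds nothing on the spread between embryos and does not show that TS12 and TS13 gave similar differences. Of the 5 ligands tested, 3 fell and 0 rose, while 0.843% of all genes fell and 0.660% rose. Those 3, Fgf3, Fgf15 and Fgf18, met the minimum only through WT libraries, which favours falls, so the count is not read as support. Fgf3 fell by 2.27 on the log2 scale (SE 0.26, limma adjusted p = 0.00189), Fgf15 by 1.70 (SE 0.32, limma adjusted p = 0.0274) and Fgf18 by 1.77 (SE 0.37, limma adjusted p = 0.0488), each lower in T KO cells at both stages. Fgf8 differed by -1.51 (SE 0.34, limma adjusted p = 0.0609) and Fgf17 by -0.01 (SE 0.18, limma adjusted p = 0.984), and neither passed. Without the stage term no ligand passed, and the limma adjusted p was 0.0809 for Fgf3, 0.381 for Fgf15 and 0.271 for Fgf18. With 1 of the 4 libraries left out, and so no stage term, neither Fgf3 nor Fgf15 passed in any of the 4 fits, and Fgf18 did not pass in the 3 fits that tested it, since it misses the minimum without WT TS13.

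**Figure D3:**
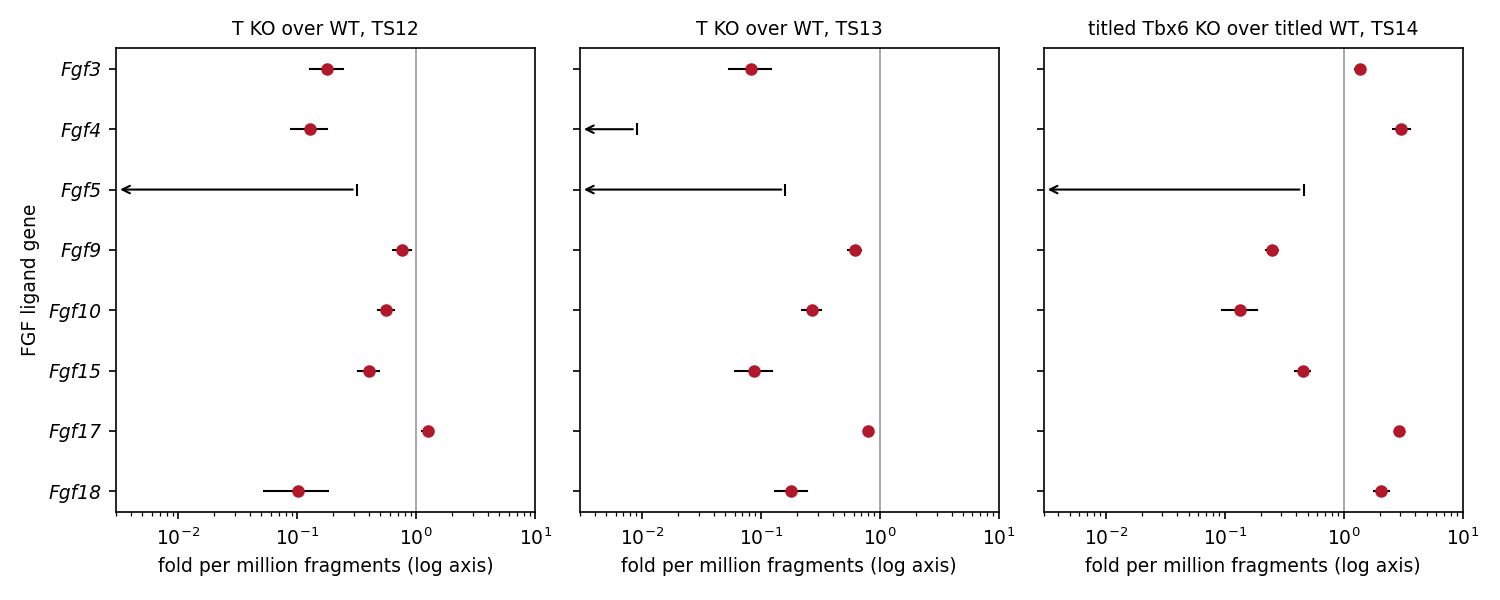
Ratio of fragments scaled to library size (log axis) for the 8 ligands with recovered counts, as T KO over WT at TS12 (left) and TS13 (middle) and titled Tbx6 KO over titled WT at TS14 (right). Points are ratios, bars are exact 95% counting intervals, and arrows start at the upper bound where the numerator had 0 fragments, as for Fgf4 at TS13. Fgf3 lies at 0.178 and 0.0827 in T KO cells and Fgf17 at 1.25 and 0.788.

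Other cell markers moved with genotype too. Sox2 was at 14.9 FPKM in T KO cells against 10.2 FPKM in WT cells at TS12. At TS13 it was at 43.5 FPKM in T KO cells against 11.99 FPKM in WT cells. Tbx6 was at 5.13 FPKM in T KO cells against 21.4 FPKM in WT cells at TS12. At TS13 it was at 1.70 FPKM in T KO cells against 23.2 FPKM in WT cells. The 5 presomitic mesoderm markers summed to 32.6 FPKM in T KO cells against 169 FPKM in WT cells at TS12, and to 22.2 FPKM in T KO cells against 171 FPKM in WT cells at TS13, with 2 of 5 at 5 FPKM or more in T KO cells at TS13 against 5 of 5 in WT. Neural tube markers summed to 11.6 FPKM in T KO cells against 8.09 FPKM in WT cells at TS12, and to 32.6 FPKM in T KO cells against 10.6 FPKM in WT cells at TS13, with Nkx6-1 at 0 in both T KO libraries. Lateral plate markers summed to 71.1 FPKM in T KO cells against 102 FPKM in WT cells at TS12, and to 48.9 FPKM in T KO cells against 97.7 FPKM in WT cells at TS13. Axial progenitor markers summed to 125 FPKM in T KO cells against 106 FPKM in WT cells at TS12, and to 107 FPKM in T KO cells against 126 FPKM in WT cells at TS13, a sum led by Cyp26a1 in WT cells. By gene, 2 of 5 axial progenitor markers were at least 2-fold higher and 1 lower at TS12 (median log2 difference 0.94), and 3 were higher and 2 lower at TS13 (median 1.20). Primitive streak and epiblast markers summed to 21.2 FPKM in T KO cells against 56.2 FPKM in WT cells at TS12, and to 3.80 FPKM in T KO cells against 20.6 FPKM in WT cells at TS13, with 2 of the 3 that met the minimum lower at TS12 and 2 of 2 at TS13. Blood markers summed to 383 FPKM in T KO cells against 784 FPKM in WT cells at TS12, and to 1805 FPKM in T KO cells against 2315 FPKM in WT cells at TS13. The part of these cells in the ligand values was not tested.

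Stages were also set side by side within a genotype. Between TS12 and TS13, 0 of 5 ligands that met the minimum passed 2-fold in WT cells, where 0.962% of all genes were higher and 0.385% lower at TS13. Fgf17 was at 20.3 FPKM at TS12 and at 30.2 FPKM at TS13 in WT cells, a TS13 to TS12 ratio of 1.49 (1.37 to 1.62), and Fgf18 had a ratio of 1.44 (1.18 to 1.77). Under upper-quartile scaling the log2 difference of Fgf17 was 0.02, against 0.55 without it. In T KO cells 2 ligands met the minimum, and 1 of them, Fgf8, was lower at TS13 by 1.73 on the log2 scale. Fgf8 met the minimum there only through the TS12 library, which favours a fall. The background was 0.821% lower and 0.682% higher. Below the minimum, the TS13 to TS12 ratio in T KO cells was 0.168 for Fgf15 (0.111 to 0.246), 0.370 for Fgf3 (0.224 to 0.599), 0.380 for Fgf10 (0.308 to 0.467) and 2.54 for Fgf18 (1.36 to 5.10), the last from 13 fragments at TS12 and 50 at TS13. Whether the stage change differs between genotypes was not tested, since each stage and genotype has 1 library.

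In the TS14 pair, the ligands went in both directions. The library titled Tbx6 KO was higher for Fgf3, Fgf4, Fgf8, Fgf17 and Fgf18 and lower for Fgf9, Fgf10 and Fgf15, with Fgf5 at 0 fragments against 8. Fgf8 had 46.7 FPKM in the titled Tbx6 KO library and 15.7 FPKM in that titled WT, a log2 difference of 1.51. Fgf17 had 54.7 FPKM in the titled Tbx6 KO library and 18.8 FPKM in that titled WT, a ratio of 2.92 (2.73 to 3.12). Fgf4 had 5.16 FPKM under the Tbx6 KO title and 1.70 FPKM under the WT title, a ratio of 3.04 (2.57 to 3.61). Fgf18, at 9.24 FPKM under the Tbx6 KO title and 4.44 FPKM under the WT title, had a ratio of 2.08 (1.78 to 2.43). Fgf3, at 24.7 FPKM under the Tbx6 KO title and 18.1 FPKM under the WT title, had a ratio of 1.36 (1.24 to 1.49).

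Fgf15 went the other way from its neighbours on chromosome 7, with 3.56 FPKM in the titled Tbx6 KO library against 7.89 FPKM in that titled WT, a ratio of 0.451 (0.388 to 0.524). Fgf9 had 2.13 FPKM under the Tbx6 KO title against 8.56 FPKM under the WT title, a ratio of 0.249 (0.222 to 0.28), and Fgf10 had 0.206 FPKM under the Tbx6 KO title against 1.53 FPKM under the WT title, a ratio of 0.134 (0.0941 to 0.188). Of 7 ligands that met the minimum, 3 were higher (Fgf4, Fgf8 and Fgf17) and 1 lower (Fgf9), beside 2.47% higher and 1.59% lower of 7721 genes. Fgf4 and Fgf9 met it only through the library where each was high, so the counts are not read as support. Lateral plate markers summed to 10.4 FPKM in the library titled Tbx6 KO, with 0 of 7 at 5 FPKM or more, and to 46.1 FPKM in that titled WT, with 5 of 7. Axial progenitor markers summed to 320 FPKM under the Tbx6 KO title against 55.3 FPKM under the WT title, presomitic markers to 302 FPKM under the Tbx6 KO title against 429 FPKM under the WT title, and blood markers to 258 FPKM under the Tbx6 KO title against 0.810 FPKM under the WT title. By gene, 3 of 5 presomitic markers were at least 2-fold lower under the Tbx6 KO title (median log2 difference -1.32). Rspo3 was higher there, at 208 FPKM against 124 FPKM. Of the primitive streak and epiblast markers, 2 of 2 that met the minimum were lower. Their part was not tested.

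Libraries labelled as wild-type T+ cells of TS12 are in both bulk tables, made with different kits. Their markers differed too, with Nkx1-2 at 35.0 FPKM in the knockout table and at 1.00 FPKM in the sorted fractions. In the same order, Sox2 was at 10.2 and 2.82 FPKM, Pou5f1 at 35.7 and 0 FPKM, and Hba-x at 196 and 5119 FPKM. In wild-type T+ cells of TS12, the knockout table (a strand-specific ScriptSeq library) and the sorted fractions (TotalScript) gave Fgf17 at 20.3 and 19.2 FPKM, Fgf8 at 25.1 and 20.9 FPKM and Fgf3 at 11.3 and 8.15 FPKM. For Fgf4 the values were 4.83 and 1.30 FPKM, for Fgf18 3.97 and 10.8 FPKM and for Fgf9 3.76 and 9.34 FPKM. The tables were normalised separately, so these are set side by side with no comparison made. Kit and mix of cells cannot be told apart here.

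Among the receptors that met the minimum, 2 at TS12 and 3 at TS13, none passed 2-fold between T KO and WT cells. Fgfr1, the main receptor of early mesoderm, was at 21.4 FPKM in T KO cells against 18.3 FPKM in WT cells at TS12 and at 25.3 FPKM in T KO cells against 18.8 FPKM in WT cells at TS13. Fgfr2 was at 5.94 FPKM in T KO cells against 2.80 FPKM in WT cells at TS13, a log2 difference of 0.87. In T KO cells at TS12 it was at 2.36 FPKM, below the minimum. From TS12 to TS13 in T KO cells, 1 of 3 receptors was higher (Fgfr2), beside 0.682% of all genes. Among the sorted fractions Fgfr1 was at 40.8 FPKM in T+ Sox2+ cells, at 44.5 FPKM in T+ cells and at 42.1 FPKM in Sox2+ cells, while Fgfr2 was at 1.74 FPKM in T+ Sox2+ cells, 2.97 FPKM in T+ cells and 8.21 FPKM in Sox2+ cells, at least 2-fold lower in each T+ fraction than in Sox2+ cells. Of the 7 receptor and coreceptor genes listed, 3 were tested over both stages by limma and 0 passed, with 0 at an unadjusted p under 0.05.

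Feedback and target genes had differences of both signs between T KO and WT cells. Spry4, an inhibitor of receptor signalling, was at 17.3 FPKM in both T KO and WT cells at TS12, and at 6.58 FPKM in T KO cells against 16.5 FPKM in WT cells at TS13. Dusp6, a phosphatase of the MAPK ERK, was at 44.6 FPKM in T KO cells against 44.5 FPKM in WT cells at TS12, and at 32.1 FPKM in T KO cells against 52.2 FPKM in WT cells at TS13. Etv4 and Etv5 had log2 differences of 0.38 and 0.47 at TS12 and of -0.52 and -0.53 at TS13. Spry1, another Sprouty inhibitor, had differences of 0.84 at TS12 and 0.62 at TS13, and Spred3, a related inhibitor, of 0.86 at TS12 and 0.80 at TS13. Of the 15 genes listed, 11 met the minimum at each stage, with 0 past 2-fold at TS12 and 1 lower (Spry4) at TS13, and the list's median difference was 0.36 at TS12 and -0.20 at TS13 beside 0.03 and -0.04 for all genes. By limma 0 of 11 tested passed over both stages, with 3 at an unadjusted p under 0.05, beside 1028 of all 8187 genes. In T+ Sox2+ cells against T+ cells, 2 of 11 were higher (Spry4 and Spred3), and against Sox2+ cells 1 of 12 was lower (Spry1). In T+ against Sox2+ cells, 3 of 12 were lower (Dusp14, Spry1 and Spred3), with a list median of -0.65, and in T KO cells 2 of 11 were lower at TS13 than at TS12 (Spry4 and Etv4). The shares of all genes past 2-fold were 1.30% higher, 1.44% lower, 3.24% lower and 0.821% lower for these 4 counts in turn. In the TS14 pair, 0 of 10 passed 2-fold, with Dusp6 at 86.1 FPKM in the titled Tbx6 KO library against 49.9 FPKM in that titled WT.

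**Figure D4:**
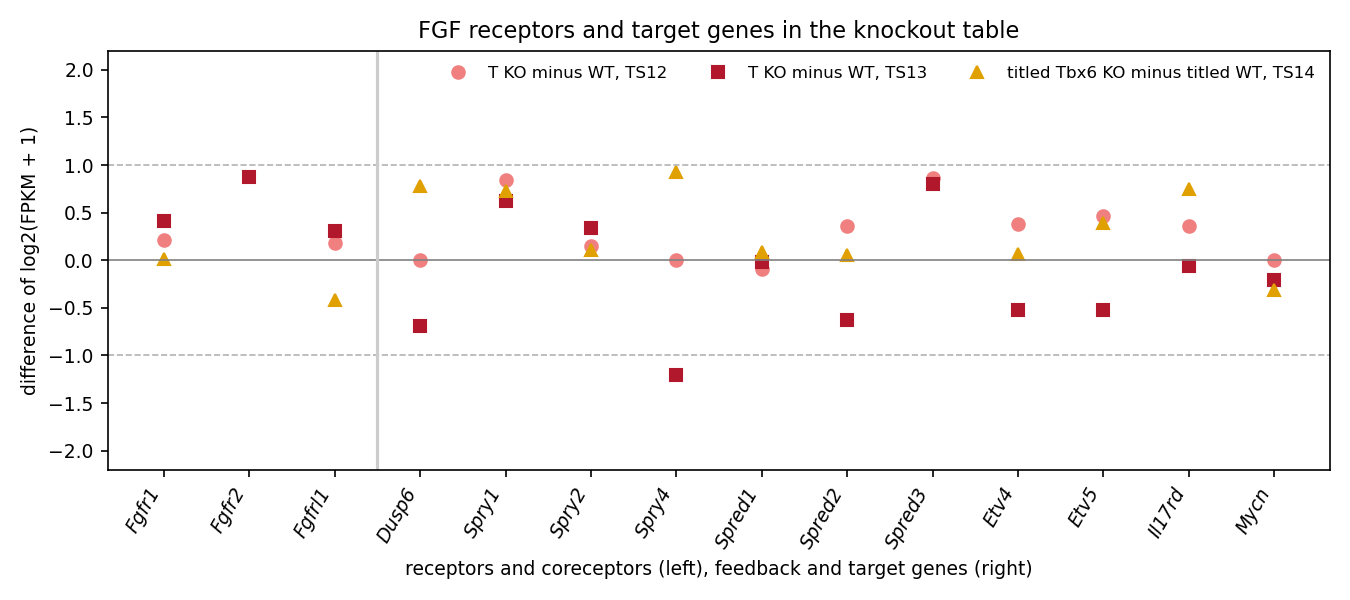
Difference of log2(FPKM + 1) for FGF receptors (left of the vertical line) and feedback and target genes (right) that met the minimum, as T KO minus WT at TS12 (circles) and TS13 (squares) and titled Tbx6 KO minus titled WT (triangles). Dashed lines mark 1 and -1. Spry4 at TS13 (-1.21) is the single point past them.

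Of the genes that relay the signal inside the cell, 13 of 14 were tested by limma and 0 passed, with 1 at an unadjusted p under 0.05. Of the heparan sulfate and extracellular genes, 13 of 16 were tested and 0 passed, with 5 at an unadjusted p under 0.05, again beside 1028 of 8187. Between single libraries, 2 of 13 were higher (Gpc4 and Fgfbp3) and 1 lower (Sulf1) in T KO cells at TS12, 0 of 12 passed 2-fold at TS13, and 2 of 11 (Sulf1 and Gpc3) were higher for T+ Sox2+ over Sox2+, beside the shares of all genes given above for these pairs. Among 13 further FGF genes outside the 9, 1 reached the minimum in that fit, Fgf13, which encodes an intracellular family member, with a log2 difference of -0.22 (limma adjusted p = 0.77).

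Single T+ Sox2+ cells of TS13 were read for which ligands were detected in the same cell. A ligand was counted as detected at 1 FPKM or more, and all 53 cells count as 1 sample of pooled embryos, so shares carry counting error only and no test was made. Fgf8 was detected in 53 of 53 cells (exact 95% interval 93.3% to 100%), from 12.3 to 458 FPKM with a median of 128 FPKM. Fgf17 was detected in 45 cells (84.9%, 72.4% to 93.3%) and Fgf15 in 44 (83.0%, 70.2% to 91.9%), with medians of 25.4 and 24.6 FPKM. Fgf4 was detected in 34 cells (64.2%, 49.8% to 76.9%) and Fgf3 in 32 (60.4%, 46% to 73.5%), with medians of 14.5 and 3.62 FPKM. The remaining ligands were seen in a minority: Fgf9 in 18 cells, Fgf18 in 16, Fgf10 in 10 and Fgf5 in 1, at 1.26 FPKM.

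The fragments behind a detection differed by gene. Among cells with any, the median was 164 for Fgf4, 89 for Fgf15, 78 for Fgf17, 37 for Fgf10, 27 for Fgf18, 24 for Fgf3 and 19 for Fgf9, and the 1 cell with Fgf5 had 4, all counted after amplification. At most 2 cells held a single fragment of any 1 ligand other than Fgf8, whose fragments could not be counted. Levels among detecting cells were wide, with Fgf4 reaching 96.5 FPKM, Fgf3 109 FPKM, Fgf15 180 FPKM and Fgf9 197 FPKM. Fgf8 was the most abundant ligand in 38 of 53 cells, Fgf4 in 5, Fgf15 and Fgf17 in 4 each, and Fgf3 and Fgf9 in 1 each. Its share of the ligand sum had a median of 55.5% and ran from 5.39% to 100%.

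A median of 5 of the 9 ligands was detected per cell, with 1 at the least and 8 at the most. The 3 neighbours on chromosome 7 were detected together in 22 cells, and none of them was detected in 4 cells. Fgf3 and Fgf4 were found together in 24 cells, Fgf3 alone of that pair in 8, Fgf4 alone in 10 and neither in 11. Over the 28 pairs of the 8 ligands seen in 10 or more cells, Spearman's rho across cells ran from -0.11 (Fgf15 with Fgf17) to 0.32 (Fgf3 with Fgf9), and it was 0.28 for Fgf3 with Fgf4 and -0.05 for Fgf8 with Fgf17. Cells share a chip and differ in depth, and the number of ligands detected had a rho of 0.68 with the number of genes detected and of 0.31 with the fragment total. None of these relations is read as a finding.

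**Figure D5:**
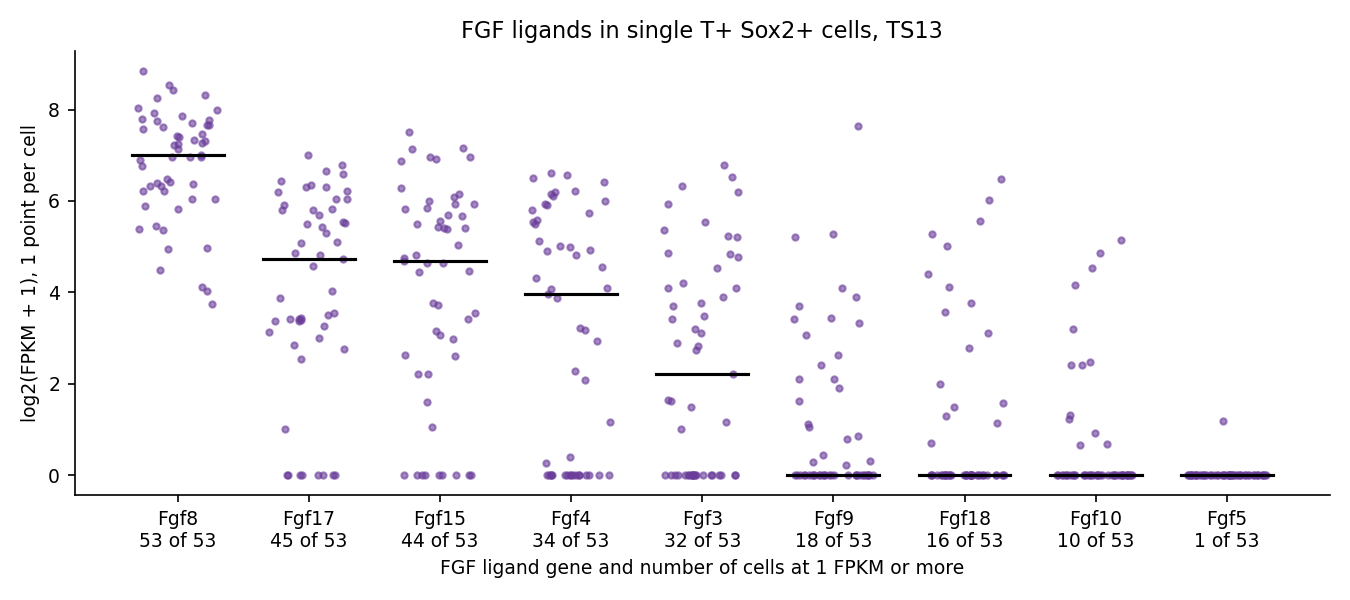
Level of each FGF ligand, as log2(FPKM + 1), in 53 single T+ Sox2+ cells of TS13, 1 point per cell with the median as a line, ordered by the number of cells at 1 FPKM or more. Fgf8 is above 0 in all cells, Fgf17, Fgf15, Fgf4 and Fgf3 are spread between 0 and high values, and Fgf9, Fgf18, Fgf10 and Fgf5 have medians of 0.

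Of the sorted genes, T was detected in 53 cells and Sox2 and Tbx6 in 46 cells each. Lateral plate and intermediate mesoderm markers were detected in 46 cells (Foxf1), 36 (Hand1), 34 (Osr1), 23 (Isl1), 21 (Hand2), 11 (Prrx1) and 1 (Gata4). Axial progenitor markers were detected in 52 cells (Cyp26a1), 50 (Wnt3a), 17 (Hes3), 12 (Nkx1-2) and 7 (Wnt8a). Their relation to the ligand values of the cells was not tested. Of the receptors, Fgfr1 was detected in 50 cells with a median of 24.5 FPKM and Fgfr2 in 2. Of the targets, Etv5 was detected in 53 cells, and Dusp6 and Spry4 in 49 cells each, with medians of 53.8, 59.8 and 18.4 FPKM.

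The genes most alike to each ligand were taken by Pearson's r of log2(FPKM + 1) over the 6 libraries of the knockout table, among 2213 other genes that varied at least 2-fold. The 6 libraries share 1 table and differ in sort, stage and genotype at once, so these values only describe it. Fgf3 was closest to Tmem151b (0.99), T (0.99) and Rspo3 (0.99), which encodes a secreted protein that strengthens Wnt signals. Fgf8 was closest to Apcdd1 (1.00), a Wnt inhibitor, Alpl (1.00), alkaline phosphatase, and Tefm (0.98). Fgf9 was closest to Nrarp (0.99), a Notch feedback gene, Fgf17 to Ripk4 (0.98), Fgf18 to Maff (0.99), Fgf15 to Mgat2 (0.96) and Fgf4 to Amot (0.96) after BC028528 (0.96). Across the 53 cells, among 8822 other genes, the highest Spearman's rho was 0.62 for Fgf3 (Rpgr), 0.56 for Fgf4 (Slain1), 0.49 for Fgf8 (Bcl7c), 0.63 for Fgf9 (Tmem223), 0.64 for Fgf10 (Pdzd9), 0.53 for Fgf15 (Rcn1), 0.49 for Fgf17 (Chuk) and 0.56 for Fgf18 (Sgce), and none of these genes was the closest in the bulk libraries.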

How the data were processed

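RNA was measured in 9 bulk libraries and 53 single cells. The deposited values are FPKM, made by the authors, with 1 value per gene symbol in 3 tables that were taken as normalised separately. The submitters' processing notes name build mm10, TopHat2 2.1.0, Bowtie 1.1.2, SAMtools, Picard 1.103, bedtools 2.23.0, Cufflinks 2.2.1, Cuffdiff and Cuffnorm. For their order, their settings and the annotation, nothing is stated in the sources used here. Samples were grouped by their labels, and the Tbx6+ pair by title. The chromatin samples were not analysed here.

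Differences are of log2(FPKM + 1), which understates the change of low genes, and were made within 1 table. Small RNAs, numbered models and joined symbols were left out of counts over all genes, and 19729 symbols were kept. The sorted and deleted genes T, Sox2 and Tbx6 were not counted either.

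Library totals came from the step between low FPKM values times RefSeq lengths up to 6000 bases (relative tolerance 0.0003, up to 15 fragments). A gene's length was the shortest whole number of bases that made its values whole within 0.02 fragments in all 9 libraries, which 11372 of 16371 genes had. In the cells, 96.1% to 98.6% of low values were then whole within 0.05 fragments. These counts served intervals only and no count model.

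Under R 4.3.3, limma 3.58.1 used empirical Bayes moderation with a trend, called at an adjusted p of 0.05. Ratio intervals are exact (Clopper-Pearson, conditional on the sum).

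Named genes were all 9 ligands, receptor and feedback genes of fixed lists, and the genes most alike to a ligand (at least 5 FPKM in 1 library and a 2-fold range, or 1 FPKM in 10 cells). The members and lists were chosen with earlier results of these data known. Alternatives were other pseudocounts, minimums, scalings, comparators, thresholds of detection and left-out libraries.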

Additional observations from a re-analysis of the deposited data

Results flagged for a closer look

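Fgf17 had effects of opposite sign at the stages, with T KO minus WT differences of log2(FPKM + 1) of 0.31 at TS12 and -0.33 at TS13. Read by stage, TS13 minus TS12, it differed by -0.087 in T KO cells and by 0.55 in WT cells. Fgf8 and Fgf9 also had opposite signs with stage, Fgf8 by -1.73 in T KO cells and 0.25 in WT cells, and Fgf9 by -0.065 in T KO cells and 0.18 in WT cells. Under upper-quartile scaling the WT difference of Fgf8 was -0.28, the same sign as in T KO cells. The TS13 to TS12 ratio of Fgf9 in T KO cells was 0.941 (0.797 to 1.11), so it had no direction beyond counting error. Each value compares 1 library with another, so none of these differences was tested.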

How the results depend on the processing

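No paired analysis was possible over replicates because each bulk group has 1 library, but the limma fit pairs T KO with WT by stage, and its 3 ligand calls became 0 without the stage term. The number of ligands past 2-fold depended mostly on the minimum and on the pseudocount. With a pseudocount of 5 FPKM it was 1 for T+ Sox2+ over Sox2+ (3 with a pseudocount of 1), 3 for T+ Sox2+ over T+ (5), 1 for T KO at TS12 (2) and 2 for the TS14 pair (4). With a minimum of 20 FPKM it was 0 for T KO at TS12, 1 at TS13 (4), 0 for T KO TS13 over TS12 (1) and 2 for the TS14 pair. With a minimum of 1 FPKM or none it was 4 for T KO at TS12 and 2 for T KO TS13 over TS12. Upper-quartile scaling gave 5 at TS12, all lower. That quartile was taken over genes above 0, of which WT TS12 had 18147 against 13943 to 14577 in the other libraries, and it moved the median of all genes to -0.47 for T KO at TS12 and to -0.48 for WT TS13 over TS12. Calls over all genes were then 11 higher and 363 lower (78 and 79 without it) for T KO at TS12, 9 and 222 (75 and 30) for WT stages, and 15 and 85 (54 and 69) for limma. With limma, 0 ligands passed with a minimum of 20 FPKM, 6 with no minimum, 4 with a minimum of 1 FPKM (Fgf4 added) and 5 under upper-quartile scaling, against 3. Leaving out 1 library gave 0 to 1, the 1 being Fgf8 without T KO TS12 (adjusted p 0.0311). Over all genes limma called 4 and 17 without the stage term, 236 and 351 with no minimum, 9 and 13 with a minimum of 20 FPKM, and, with 1 library left out, 0 to 5 rose and 6 to 16 fell. A pseudocount of 0.1 FPKM put Fgf15 (-1.13) and Fgf18 (1.04) past 2-fold in the TS14 pair, and with limma it ended the call of Fgf18 (adjusted p 0.0536) and added Fgf8 (adjusted p 0.0393). With WT TS13 as the comparator, Fgf15 in T KO cells at TS12 was at -0.77. No called ligand changed direction under any alternative run. In the cells, 5 ligands were detected in over 50% of cells, and 4 at a threshold of 5 or of 10 FPKM. Low counts limit Fgf5, Fgf18 in T KO cells and Fgf4 in T KO cells most.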
